A study of Homo sapiens with 24 samples.

Results

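The genes of the ER membrane protein complex (EMC) were followed in a human retinal pigment epithelial line with altered levels of epithelial membrane protein 2 (EMP2). The members were the rows of the gene count table named EMC1, EMC2, EMC3, EMC4, EMC6, EMC7, EMC8, EMC9, EMC10 and MMGT1 (also called EMC5), 10 of 60623 rows. All 10 were among the 24873 genes tested, those with at least 10 counts in total. The family was chosen by a measured value, the near absence of EMC10 transcript in the EMP2 knock down cells. EMC10 in each comparison with those cells is therefore a description without a test, and the other 9 members are counted there.

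RNA was sequenced from 24 libraries of ARPE-19, an established line from human retinal pigment epithelium, in 8 groups of 3. Wild type (WT) cells were set beside a vector control (VC) and an EMP2 overexpressing line (OE), both stable retroviral lines, and an EMP2 knock down line (KD) made with a lentiviral short hairpin RNA. The study made more than one knock down clone, and which clone these libraries came from is not given in the sources used here. Each was sampled in normoxia and after 4 h at 0.5% O2, called hypoxia here. The OE libraries bear 2 names in the labels, OE1 in set 3 and OE2 in sets 1 and 2, and no line with a control hairpin was among the samples. The labels do not say whether the 3 libraries of a group were separate cultures, so a p-value measures the spread among libraries that may be technical repeats.

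The libraries held 10796813 to 19779450 counts (median 15992615). Hypoxia OE replicate 1 stood apart, with counts equal to 64.9% of its uniquely mapped reads against 90.0 to 91.5% elsewhere. EMP2 followed the labels, with means in normoxia and hypoxia of 54.6 and 41.2 counts per 1e6 scaled counts (CPM) in WT, 586 and 558 in OE and 12.2 and 7.73 in KD. All 14 retinal pigment epithelium markers were detected in WT, and RPE65 was at 0 counts in hypoxia VC and hypoxia KD. Their summed level was 5204 to 5696 CPM in WT, 1582 to 1929 in VC, 3054 to 3890 in OE and 3496 to 4441 in KD. The 4 neuroretina markers summed to 24.7 to 47.8 CPM in VC and to at most 1.00 CPM in the other lines, with the cone opsin gene OPN1MW at 0 in every library. Only 2 of these 4 had enough counts to be tested, and 1 was higher in VC than in WT. NEFM was at 0 in hypoxia VC. Blood markers summed to 4.02 to 5.16 CPM in normoxia VC and 1.93 to 2.34 in hypoxia VC, and to at most 0.209 in the other lines. Of the 3 blood markers only 1 had enough counts to be tested, and it was higher in VC than in WT. HBB was at 0 in normoxia VC and PTPRC at 0 in hypoxia VC. Endothelium markers summed in hypoxia to 11.4 to 11.8 CPM in KD, 6.30 to 7.90 in WT, 1.70 to 2.44 in VC and 0.413 to 0.993 in OE. Of these 5 markers only 1 was called higher in KD than in WT in hypoxia. In hypoxia VC 1 was higher and 1 lower, and in hypoxia OE 2 were lower. Against WT in normoxia, 9 of the 14 epithelium markers were lower and 3 higher in VC, 8 and 2 in OE, and 7 and 3 in KD. Of all genes tested 35.8% passed (edgeR adjusted p under 0.01) in VC, 19.7% in OE and 16.3% in KD. Among genes with a mean of at least 1 CPM the shares were 55%, 32.2% and 27.3%. All 3 altered lines thus differed from WT in these markers, and their part in the results was not tested. In bulk RNA, fewer cells with a transcript and less transcript per cell cannot be told apart.

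The EMC is a complex of the endoplasmic reticulum (ER) membrane that inserts transmembrane helices, among them the anchors of tail-anchored proteins and the first helices of many multipass receptors. EMC3 and EMC6 form the membrane core that carries out insertion, with EMC4 and MMGT1 beside them. EMC2 is the cytosolic scaffold, EMC8 and EMC9 are paralogs that take the same cytosolic place, and EMC1, EMC7 and EMC10 make up most of the lumenal part. In flies, photoreceptors without the complex make too little rhodopsin.

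Promoter sequence was available for 8 of the 10 members in the RefSeq promoter table (GRCh38.p14), all but EMC2 and MMGT1. The 250 bases before the RefSeq start are shown for 3 members on which the results turn: EMC10, nearly absent in KD, EMC7, higher in VC together with its divergent neighbour, and EMC8, lower in hypoxia. They lie at chr19:50476257-50476506 (plus strand), chr15:34101863-34102112 (minus strand) and chr16:85799545-85799794 (minus strand). Capitals mark TGACGTCA, the cAMP response element, in EMC10 and CCGGAAG, the core bound by ETS factors, or its reverse complement, in EMC7 and EMC8.
EMC10: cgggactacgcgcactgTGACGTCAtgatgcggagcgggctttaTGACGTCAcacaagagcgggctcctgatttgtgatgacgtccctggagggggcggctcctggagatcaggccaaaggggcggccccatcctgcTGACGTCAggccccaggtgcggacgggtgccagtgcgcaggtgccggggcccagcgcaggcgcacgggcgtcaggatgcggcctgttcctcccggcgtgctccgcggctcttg
EMC7: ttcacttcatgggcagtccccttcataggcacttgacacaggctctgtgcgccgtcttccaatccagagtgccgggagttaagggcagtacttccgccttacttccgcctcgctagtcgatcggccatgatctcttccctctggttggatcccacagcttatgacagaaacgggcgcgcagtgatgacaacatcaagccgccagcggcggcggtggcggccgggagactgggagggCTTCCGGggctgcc
EMC8: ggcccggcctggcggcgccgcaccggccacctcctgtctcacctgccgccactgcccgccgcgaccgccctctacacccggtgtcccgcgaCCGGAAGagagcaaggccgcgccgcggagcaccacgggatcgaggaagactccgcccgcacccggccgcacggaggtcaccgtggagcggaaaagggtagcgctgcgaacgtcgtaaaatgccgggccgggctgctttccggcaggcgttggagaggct
Motifs were searched on both strands, and TGACGTCA reads the same on both. The EMC10 window held 3 copies, beginning 233, 206 and 113 bases before the start, and none of the other 7 windows held one. Of 35116 human promoter windows of this length, EMC10 included, 1.65% held at least 1 copy. The 1 window with 3 was that of EMC10 itself. CCGGAAG occurred in the EMC4, EMC7 and EMC8 windows and in 8.52% of all windows. ACGTG, the core of the hypoxia response element, occurred in the EMC9 window and in 18.5% of all windows, and not in those of EMC1, EMC6 or EMC8. These matches describe letters only.

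Levels of different genes were compared as CPM per kb of the annotated canonical transcript. In normoxia WT, EMC6 stood at 37.1 ± 2.5 (SD, n = 3), EMC4 at 30.0 ± 2.6, EMC7 at 24.3 ± 1.8 and EMC1 at 22.7 ± 0.71 CPM per kb. EMC8 (19.8 ± 0.46) and EMC3 (19.5 ± 1.2) lay within their spread of each other, as did EMC7 and EMC1. EMC9 followed at 12.8 ± 0.41, MMGT1 at 10.7 ± 0.82, EMC10 at 7.06 ± 0.25 and EMC2 at 5.31 ± 0.58 CPM per kb. The order depends on the length assumed, and over all annotated exons joined EMC4 stood at 6.88 and EMC1 at 10.0 CPM per kb.
Over the 24 libraries the highest CPM was 1.38 times the lowest for EMC3, 1.62 times for MMGT1 and 1.83 times for EMC1. The ratio ran from 2.04 (EMC9) to 3.1 (EMC7) for EMC2, EMC4, EMC6, EMC7, EMC8 and EMC9. For EMC10 it was 949.

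**Figure D1:**
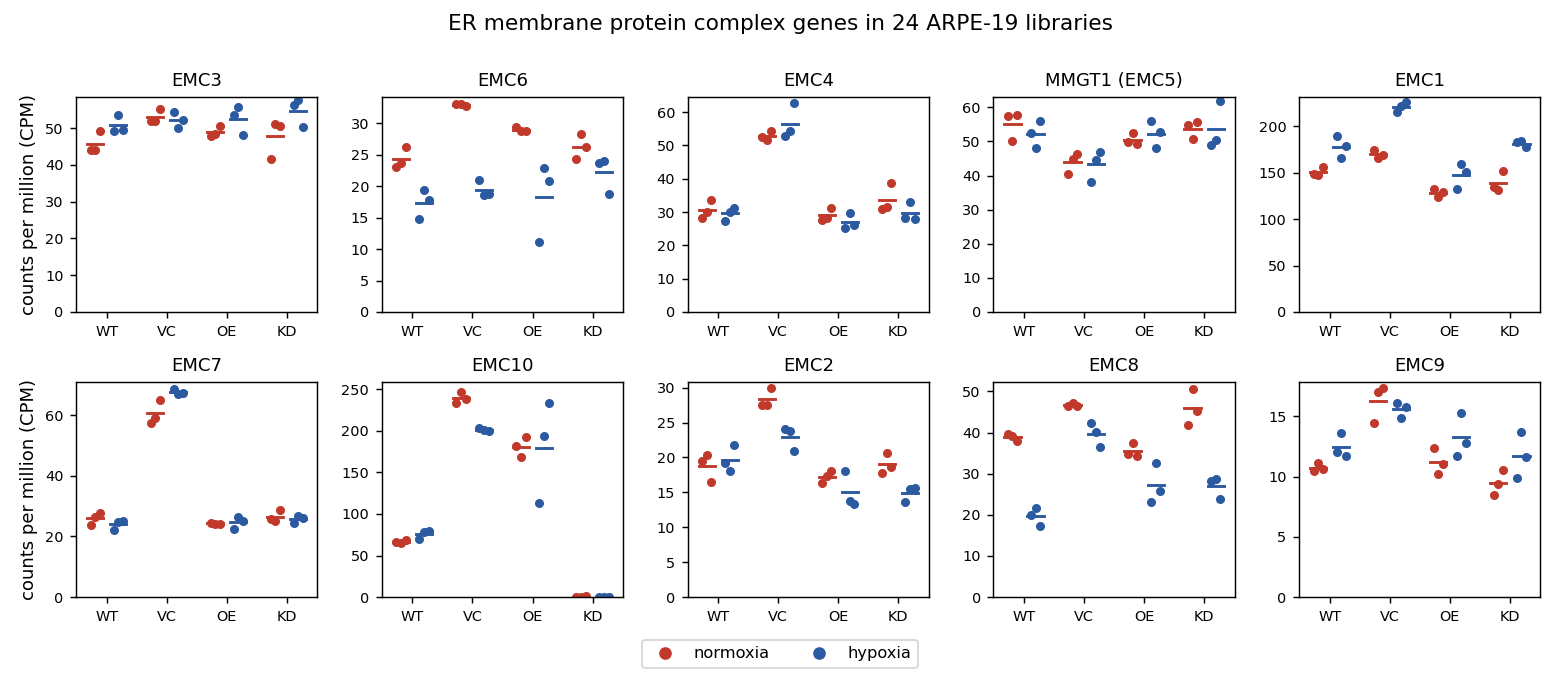
Counts per 1e6 scaled counts (CPM) of each EMC gene in each library by line, normoxia in red and hypoxia in blue. Points are libraries and horizontal bars are means of 3. EMC10 lies below 1 CPM in KD, and EMC7 and EMC4 are highest in VC at both oxygen levels.

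EMC10, a lumenal subunit (chr19:50476400-50490871, plus strand, GRCh38), had the widest range. In KD it was at 0.431, 0.259 and 0.762 CPM in normoxia and 0.526, 0.511 and 0.504 CPM in hypoxia. These values rest on 5 to 12 counts per library, where a floor of 3 counts corresponds to 0.150 to 0.252 CPM. In WT it was at 65.9, 64.8 and 69.3 CPM in normoxia and 70.3, 78.9 and 79.7 CPM in hypoxia. No KD library came near a WT library, and the WT mean was 138 times the KD mean in normoxia and 149 times in hypoxia. On the log2 scale KD differed from WT by -7.13 and -7.19, given without a test.

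EMC10 was higher in both retroviral lines than in WT. It was at 182, 169 and 192 CPM in normoxia OE and 113, 193 and 233 CPM in hypoxia OE. In VC it was at 234, 246 and 238 CPM in normoxia and 203, 202 and 199 CPM in hypoxia. Every OE and VC library lay above every WT library. The log2 difference of OE from WT was 1.44 (SE 0.16, edgeR adjusted p = 3.7e-07) in normoxia, where EMC10 was the 1 member of 10 called against 19.7% of all genes, and 1.24 (SE 0.16, edgeR adjusted p = 2.1e-06) in hypoxia. Without hypoxia OE replicate 1, the lowest OE library, the latter was 1.46. The log2 difference of VC from WT was 1.85 (SE 0.16, edgeR adjusted p = 4.8e-09) in normoxia and 1.40 (SE 0.16, edgeR adjusted p = 2.1e-07) in hypoxia.
OE and VC, neighbours at the top of the order, were not separated in hypoxia, at -0.16 (SE 0.15, edgeR adjusted p = 0.42), and their libraries overlapped. In normoxia OE was below VC in every library, at -0.40 (SE 0.15, edgeR adjusted p = 0.041), which missed the threshold. That difference passed without a count filter (-0.41), with only the compared libraries (-0.42) and without set 1 (-0.43). The order of EMC10 was KD, WT, then OE and VC, whereas EMP2 stood at 50.8 CPM in normoxia VC, near its WT level, and highest in OE. Hypoxia did not move EMC10 past the threshold in WT (0.20, SE 0.16), VC (-0.25, SE 0.15) or OE (-0.01, SE 0.15). In WT and VC the libraries of the 2 oxygen levels did not overlap, and VC passed with only the compared libraries (-0.24). The response in VC minus that in WT, at -0.45 (SE 0.22), did not pass. That difference passed without a count filter (-0.45), with only the compared libraries (-0.46) and without set 1 (-0.51).

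Of the 12 other genes in the table within 100 kb of EMC10, 9 were tested. In KD against WT 3 were lower and none higher at each oxygen level, and GARIN5A and JOSD2 were among them at both. In VC against WT 5 were higher and 1 lower in normoxia and 4 and 1 in hypoxia, and in OE against WT 2 and 2 at each oxygen level. LRRC4B, beyond JOSD2, was among the lower, with normoxia means of 39.7 CPM in WT, 21.3 in OE and 7.21 in VC, and it did not pass in KD (-0.29, SE 0.22). In KD against WT 16.3% of all genes passed in normoxia and 18.2% in hypoxia, in VC 35.8% and 39.9%, and in OE 19.7% and 26.6%. For genes of at least 1 CPM on average they were 27.3% and 30.6%, 55% and 61.8%, and 32.2% and 43.5%, in that order. GARIN5A (FAM71E1 in the table), which overlaps the EMC10 start on the opposite strand, had 0 counts in all 6 KD libraries. WT held 9, 11 and 4 counts of it in normoxia and 8, 8 and 12 in hypoxia. With 3 counts over the KD group as the floor, WT was at least 7.91-fold higher than KD in normoxia and at least 8.81-fold higher in hypoxia. Like EMC10 it was higher than WT in OE, by 3.01 (SE 0.32) and 2.99 (SE 0.31) on the log2 scale in normoxia and hypoxia, and in VC, by 2.79 (SE 0.32) and 1.99 (SE 0.32). GARIN5A shares 324 bp, or 3.01%, of the EMC10 exons, and 2 noncoding genes on the opposite strand share 3.49% and 5.82%. Whether counting used strand is not given in the sources used here, so reads in these bases cannot be told apart.
JOSD2, a deubiquitinase gene 15127 bp beyond EMC10 without a shared exon, was at 9.53 ± 0.59 CPM (SD, n = 3) in normoxia KD and 17.4 ± 0.50 CPM in normoxia WT. The log2 difference was -0.87 (SE 0.15, edgeR adjusted p = 4.9e-05), and in hypoxia -1.0 (SE 0.15, edgeR adjusted p = 6.3e-06). In VC it was higher than in WT by 0.87 (SE 0.14) in normoxia and 0.70 (SE 0.14) in hypoxia. In OE it was higher in normoxia (0.58, SE 0.14) and did not pass in hypoxia (-0.28, SE 0.14).

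**Figure D2:**
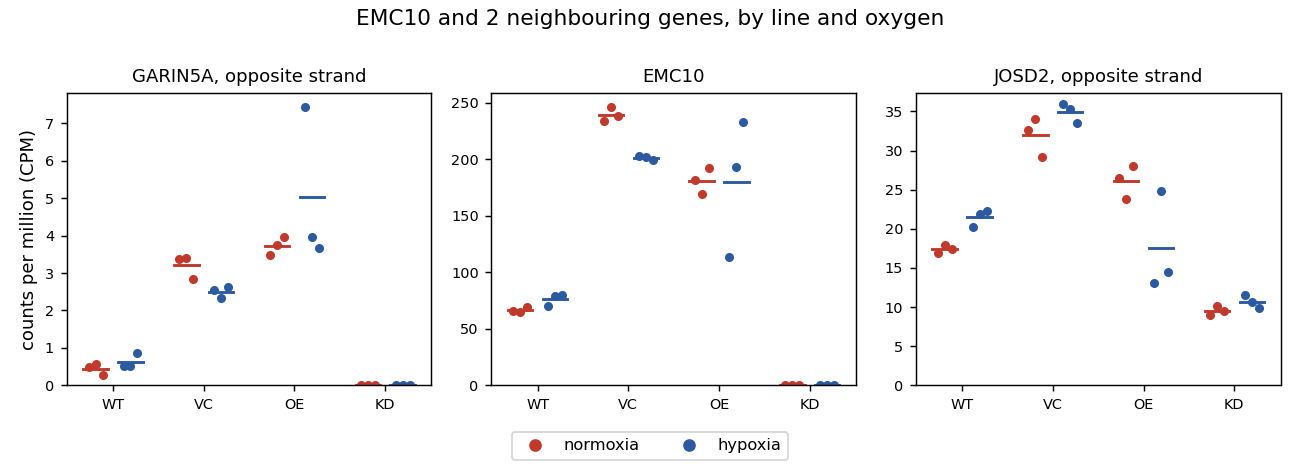
CPM of GARIN5A, EMC10 and JOSD2 in each library by line, normoxia in red and hypoxia in blue, with bars at the means of 3 libraries. All 3 genes have their lowest means in KD, where GARIN5A has 0 counts in all 6 libraries.

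The 5 genes whose log2 CPM was most like that of EMC10 over 24 libraries, among 13922 genes with a mean of at least 1 CPM, were PTPN6 (Pearson r = 0.988), PARP11 (0.987), FITM2 (0.984), ZNF615 (0.984) and SLC35F2 (0.982). Over the 18 libraries without KD, r was 0.898, 0.820, 0.710, 0.766 and 0.686 in that order. The libraries share lines, so these values are a description. Among the other members r with EMC10 ran from -0.42 (MMGT1) to 0.589 (EMC9).

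In KD, where EMC10 was nearly absent, none of the other 9 members passed against WT in normoxia in edgeR or DESeq2, and 1 had an unadjusted p under 0.05. Of all genes 16.3% passed, and of the 13922 genes of at least 1 CPM 27.3%. The 9 log2 differences ran from -0.18 (EMC9) to 0.24 (EMC8), with standard errors of at most 0.15 and a median of 0.04 beside 0 over all genes. The insertase core gave 0.07 (SE 0.08) for EMC3 and 0.11 (SE 0.15) for EMC6, and EMC1, the largest subunit, gave -0.11 (SE 0.07). EMC8, above WT in every KD library, passed with only the compared libraries (0.25) and without set 1 (0.35).
In hypoxia 2 of the 9 passed, against 18.2% of all genes and 30.6% of genes of at least 1 CPM. EMC8 was at 28.2, 28.7 and 23.9 CPM in KD and 19.97, 21.7 and 17.4 CPM in WT, a log2 difference of 0.45 (SE 0.11, edgeR adjusted p = 0.0017). EMC2 was at 13.7, 15.4 and 15.6 CPM in KD and 19.1, 18.0 and 21.8 CPM in WT, a difference of -0.40 (SE 0.11, edgeR adjusted p = 0.0083). Neither pair of groups overlapped. The EMC8 call was lost without hypoxia KD replicate 1 (0.42) or 2 (0.41), hypoxia WT replicate 3 (0.37) or set 3 (0.45), and the EMC2 call was lost with RLE size factors (-0.39) and held in 1 of 9 such fits, that without hypoxia WT replicate 2, with values of -0.47 to -0.32.

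In OE in hypoxia 4 of 10 members passed against WT, with EMC10, where 26.6% of all genes and 43.5% of genes of at least 1 CPM did. EMC1 was at 133, 160 and 151 CPM in OE and 190, 166 and 179 CPM in WT, a log2 difference of -0.27 (SE 0.07, edgeR adjusted p = 0.0036). EMC8 was higher in every OE library than in any WT library, by 0.47 (SE 0.11, edgeR adjusted p = 8.0e-04). EMC2 was at 18.1, 13.7 and 13.3 CPM in OE, which overlapped WT, with a difference of -0.39 (SE 0.11, edgeR adjusted p = 0.0064). Without hypoxia OE replicate 1 the same 3 passed, at -0.22, 0.54 and -0.56.
These calls depended on the fit. With only the compared libraries EMC1 (-0.27), EMC8 (0.46) and EMC2 (-0.39) were all lost, as they were without set 3, at -0.28, 0.42 and -0.24. EMC2 was also lost with RLE size factors, filterByExpr and DESeq2, at -0.36, -0.37 and -0.36. Without set 1 EMC1 (-0.18) was lost, and without set 2 EMC8 (0.39) and EMC2 (-0.39). Without hypoxia WT replicate 3 all 3 were lost, at -0.26, 0.39 and -0.31. Without hypoxia WT replicate 1 EMC1 (-0.22) and EMC2 (-0.41) were lost, without hypoxia OE replicate 2 EMC8 (0.32) and EMC2 (-0.33), and without hypoxia OE replicate 3 EMC2 (-0.32). In normoxia EMC1 was at 132, 124 and 129 CPM in OE, below every WT library (148, 148 and 156 CPM), and the difference of -0.23 (SE 0.07, edgeR adjusted p = 0.015) missed the threshold. It passed with filterByExpr (-0.22), only the compared libraries (-0.23), DESeq2 (-0.22) and without set 1 (-0.29).

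VC held the most called members against WT. In normoxia 6 of 10 passed, 5 higher and 1 lower, where 35.8% of all genes (19.8% higher and 16% lower) and 55% of genes of at least 1 CPM passed. In hypoxia 5 of 10 passed, all higher, where 39.9% of all genes (21.9% higher) and 61.8% of genes of at least 1 CPM passed. The share of members called was thus near that of expressed genes. Their median log2 difference was 0.52 in normoxia and 0.32 in hypoxia, beside 0.03 and 0 over all genes.
EMC7, a lumenal subunit, was at 57.6, 59.1 and 65.1 CPM in VC and 23.8, 26.4 and 27.7 CPM in WT in normoxia. In hypoxia it was at 68.6, 67.1 and 67.3 CPM in VC and 22.1, 24.6 and 25.2 CPM in WT. The log2 differences were 1.22 (SE 0.08, edgeR adjusted p = 8.1e-14) and 1.5 (SE 0.08, edgeR adjusted p = 7.7e-16). EMC4, a membrane subunit, was at 52.5, 51.5 and 54.3 CPM in VC and 28.2, 30.0 and 33.5 CPM in WT in normoxia, with log2 differences of 0.79 (SE 0.10, edgeR adjusted p = 3.8e-08) and, in hypoxia, 0.94 (SE 0.10, edgeR adjusted p = 1.2e-09). For both genes every VC library lay above every library of the other lines.
EMC2, the scaffold, was higher in VC in normoxia by 0.59 (SE 0.11, edgeR adjusted p = 2.9e-05) and did not pass in hypoxia (0.23, SE 0.11). EMC9 was higher in normoxia by 0.60 (SE 0.12, edgeR adjusted p = 1.3e-04), a call lost without set 3 (0.54), and did not pass in hypoxia (0.32, SE 0.12). EMC8 was higher in hypoxia by 1.01 (SE 0.11, edgeR adjusted p = 1.6e-09), and EMC1 by 0.31 (SE 0.07, edgeR adjusted p = 4.7e-04), the latter lost without set 2 (0.24). MMGT1 was the only member lower in VC, at 40.6, 44.7 and 46.4 CPM against 57.3, 50.2 and 57.7 CPM in WT, a difference of -0.33 (SE 0.09, edgeR adjusted p = 0.0044). That call was lost with RLE size factors or DESeq2 (both -0.29) and in 7 of 9 fits that left libraries out, and held without normoxia VC replicate 3 or normoxia WT replicate 2. The insertase core did not pass in normoxia with edgeR, at 0.21 (SE 0.08) for EMC3 and 0.44 (SE 0.15) for EMC6. EMC6 passed in 5 other fits, among them DESeq2 (0.47), and without set 1 (0.38). DESeq2 called 9 of the 10 members in normoxia, all but MMGT1, with EMC3 at 0.24, EMC1 at 0.21 and EMC8 at 0.30 added to EMC6. EMC8 also passed with RLE size factors and, like EMC1, with only the compared libraries.

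**Figure D3:**
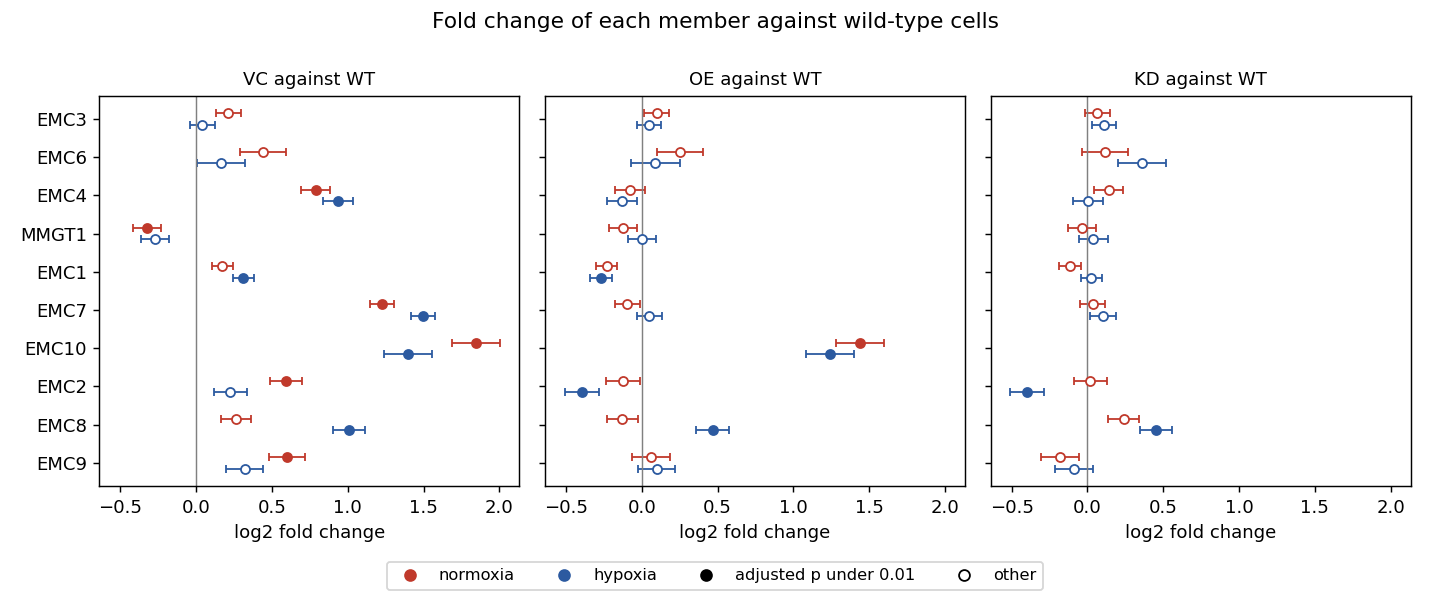
Log2 fold change of each member against WT in VC, OE and KD, with standard errors, normoxia in red and hypoxia in blue. Filled points have an adjusted p under 0.01, and EMC10 in KD (-7.13 and -7.19) is left out. In VC the largest values are those of EMC10, EMC7, EMC8 in hypoxia and EMC4, and in KD 2 points are filled.

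OE was also compared with VC, the line made with a retroviral control construct. In normoxia 6 of 10 members were lower in OE and none higher, where 33.5% of all genes were called (18.1% lower), and in hypoxia 5 of 10 were lower, where 38.2% were called (20.3% lower). Of genes of at least 1 CPM 51.8% and 58% were called, so the share of members called was near that of expressed genes here too. The log2 difference of EMC7 was -1.32 (SE 0.08) in normoxia and -1.45 (SE 0.08) in hypoxia, and that of EMC4 -0.87 (SE 0.10) and -1.06 (SE 0.10). EMC1 gave -0.41 (SE 0.07) and -0.58 (SE 0.07), EMC2 -0.72 (SE 0.11) and -0.62 (SE 0.11), and EMC8 -0.39 (SE 0.10) and -0.54 (SE 0.10). EMC9 passed in normoxia (-0.54, SE 0.12) and not in hypoxia (-0.22, SE 0.12), and the difference between these values was not tested. The normoxia calls of EMC9 were lost without set 2 (-0.43) or set 3 (-0.50) and that of EMC8 without set 3 (-0.38). In hypoxia the EMC2 call was lost without set 2 (-0.51). With only the compared libraries EMC2 (-0.60) and EMC8 (-0.54) were lost in hypoxia. These comparisons use the same VC libraries as those of VC against WT, and EMC7 in normoxia OE, at 24.6, 24.1 and 24.2 CPM, overlapped WT.

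EMC7 (chr15:34084017-34101862) and EMC4 (chr15:34225013-34230156) lie close together on chromosome 15, and their log2 CPM had a Pearson r of 0.969 over the 24 libraries, which share lines. The genes around them were read in VC against WT after the values of both had been seen. PGBD4, which starts 221 bp from EMC7 and runs the other way, was higher in VC by 1.32 (SE 0.17, edgeR adjusted p = 9.8e-08) in normoxia and 1.76 (SE 0.18, edgeR adjusted p = 1.0e-09) in hypoxia. KATNBL1, between EMC7 and EMC4, was higher by 0.88 (SE 0.14) and 1.42 (SE 0.15). Of 12 other genes of at least 1 CPM within 1 Mb, 9 were higher and 1 lower in normoxia, and 9 higher and 1 lower in hypoxia, with median log2 differences of 0.86 and 1.29.
NOP10, a gene of the complex that modifies ribosomal RNA, had the highest values of these 12, at 1.74 (SE 0.12) and 2.14 (SE 0.12). ACTC1, the cardiac actin gene, was the one lower, at -3.79 (SE 0.19) and -2.78 (SE 0.40). AVEN, on the far side of EMC7, did not pass, at -0.20 (SE 0.14) and 0.06 (SE 0.14), nor did GOLGA8A, a near-identical copy of GOLGA8B whose counts are uncertain. Over the 430 genes of chromosome 15 of at least 1 CPM the median was 0.20 in normoxia and 0.28 in hypoxia, with 40.5% and 45.8% called higher. The medians of the other members' chromosomes ran from -0.21 (X, MMGT1) to 0.22 (17, EMC6) in normoxia. In OE against WT 3 of the 12 genes were higher and 0 lower in normoxia (median 0.09), and 5 higher and 0 lower in hypoxia (median 0.45). In KD against WT 2 were higher and 1 lower in normoxia and 3 and 0 in hypoxia, and the medians were 0.00 and 0.10.

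**Figure D4:**
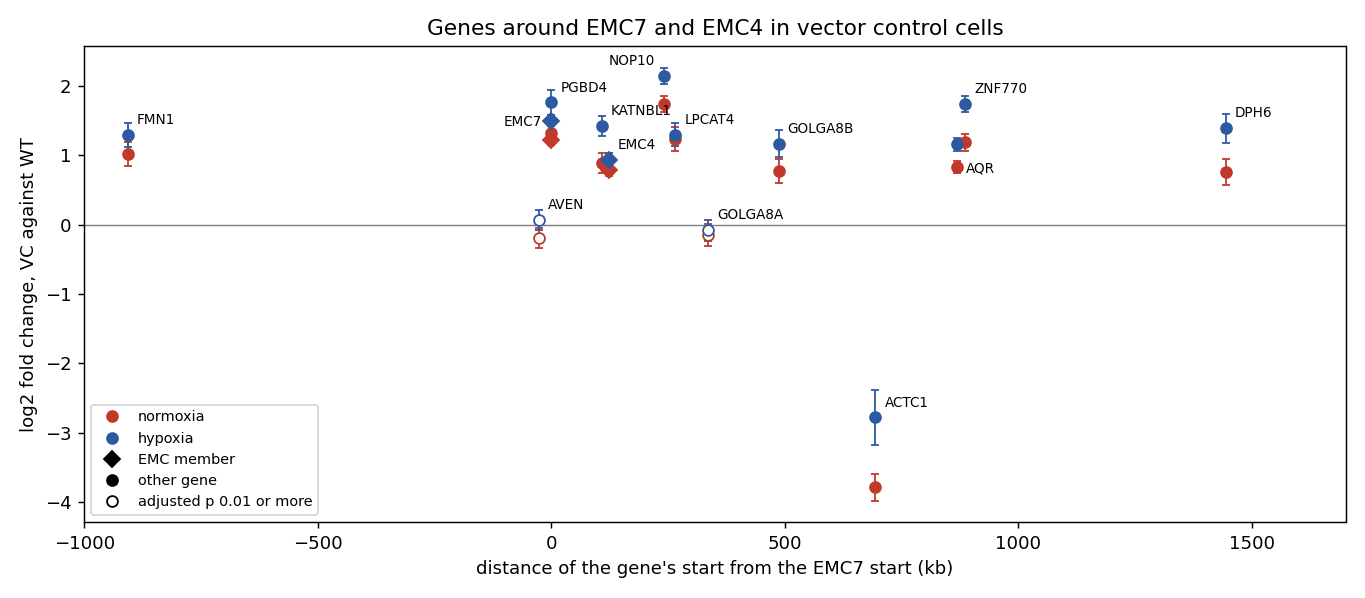
Log2 fold change of VC against WT, with standard errors, for EMC7, EMC4 and 12 other genes of at least 1 CPM, by distance from the EMC7 start in kb. Normoxia is red and hypoxia blue, and open points did not pass. In normoxia 9 of the 12 are higher, and AVEN, GOLGA8A and ACTC1 are not.

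Responses to hypoxia were read line by line. In WT 1 of 10 was called, against 21.1% of all genes and 36.8% of genes of at least 1 CPM. With the replicate number as a block 2 were called, EMC1 being added at 0.24 (edgeR adjusted p = 0.0086). EMC8, a cytosolic subunit, was at 39.7, 39.1 and 37.9 CPM in normoxia and 19.97, 21.7 and 17.4 CPM in hypoxia in WT. The groups did not overlap, and the log2 change was -0.98 (SE 0.11, edgeR adjusted p = 9.8e-09). In KD it went from 41.7, 50.6 and 45.3 CPM to 28.2, 28.7 and 23.9 CPM, a change of -0.77 (SE 0.10, edgeR adjusted p = 6.7e-07). In OE it went from 34.9, 37.6 and 34.4 CPM to 23.0, 32.5 and 25.8 CPM, a change of -0.39 (SE 0.10, edgeR adjusted p = 0.0067). The OE call was lost with only the compared libraries (-0.36) and in 7 of 9 fits that left libraries out, among them those without hypoxia OE replicate 1 (-0.28), hypoxia OE replicate 3 (-0.35) and normoxia OE replicates 1 (-0.39), 2 (-0.34) or 3 (-0.39). In VC EMC8 went from 46.5, 47.3 and 46.4 CPM to 42.3, 40.2 and 36.6 CPM, without overlap, and the change of -0.23 (SE 0.10, edgeR adjusted p = 0.082) did not pass.
The difference between responses was tested as an interaction. EMC8 fell less in VC than in WT, by 0.75 (SE 0.14, edgeR adjusted p = 4.6e-04). It was the 1 member of 10 called, against 8.02% of all genes and 14.2% of genes of at least 1 CPM. This call was lost without set 3, at 0.74 (edgeR adjusted p = 0.011). EMC8 also fell less in OE than in WT, by 0.60 (SE 0.15, edgeR adjusted p = 0.0066). This was again the call of 1 member, against 6.18% of all genes and 11% of genes of at least 1 CPM. It was lost with only the compared libraries (0.60) and in 7 of 15 fits that left libraries out, those without hypoxia OE replicate 2 (0.47), hypoxia WT replicate 1 (0.60) or 3 (0.52), normoxia OE replicate 1 or 3 (both 0.58), set 2 (0.57) or set 3 (0.56), and held without hypoxia OE replicate 1 (0.69). In KD the difference was 0.21 (SE 0.15), and none of 9 members passed in edgeR or DESeq2, with 1 at an unadjusted p under 0.05. Of all genes 0.985% passed in edgeR, and of genes of at least 1 CPM 1.76%.
COX4I1, a cytochrome c oxidase gene on the opposite strand, starts 151 bp from EMC8 by the RefSeq starts. In the GENCODE annotation it overlaps EMC8, with 4 bp of exon shared. COX4I1 was at 199 ± 16 CPM (SD, n = 3) in normoxia WT and 197 ± 8.2 CPM in hypoxia WT. Its log2 change in hypoxia ran from -0.06 (OE) to 0.11 (VC) and passed in no line. In KD it was higher than in WT by 0.44 (SE 0.07) in normoxia and 0.53 (SE 0.07) in hypoxia.

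EMC9, the paralog of EMC8, passed in no line in hypoxia, with 0.21 (SE 0.12) in WT. Per kb of canonical transcript EMC8 lay above EMC9 in normoxia WT and below it in hypoxia WT, with log2 ratios of 0.63 ± 0.06 (SD, n = 3) and -0.57 ± 0.08. With all annotated exons joined they were 0.52 and -0.68. In KD the ratio went from 1.05 ± 0.16 to -0.02 ± 0.27, in OE from 0.44 ± 0.20 to -0.21 ± 0.06 and in VC from 0.30 ± 0.14 to 0.12 ± 0.12. The libraries of the 2 oxygen levels overlapped in VC and in no other line. A gene on the opposite strand shares 19.5% of the EMC9 exons, so part of the EMC9 counts cannot be assigned with certainty.

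EMC6, of the insertase core, had a negative log2 change in hypoxia in all 4 lines. In VC it went from 33.0, 33.0 and 32.8 CPM to 21.0, 18.6 and 18.8 CPM, a change of -0.76 (SE 0.15, edgeR adjusted p = 3.9e-04) that was lost without set 2 (-0.72) or set 3 (-0.73). In OE it went from 29.3, 28.8 and 28.8 CPM to 11.1, 22.9 and 20.8 CPM, a change of -0.65 (SE 0.16, edgeR adjusted p = 0.0033). Hypoxia OE replicate 1 was the lowest library, and without it the change was -0.40 and passed. The call was lost with only the compared libraries (-0.64) and without normoxia OE replicate 1 or 3 (both -0.63), set 2 (-0.83) or set 3 (-0.73). WT (-0.48, SE 0.16) and KD (-0.24, SE 0.15) did not pass, and no interaction was called for EMC6. The WT groups did not overlap, and WT passed with no filter, DESeq2 and only the compared libraries (each -0.47) and without set 1 (-0.40). P2RX5-TAX1BP3 covers 74.0% of the EMC6 exons on the opposite strand, so EMC6 counts may include its reads. In hypoxia OE replicate 1, where EMC6 was lowest, P2RX5-TAX1BP3 had 82 counts (6.77 CPM). In every other group its libraries reached at most 1.14 CPM. Whether reads were assigned differently between these genes in that library was not tested.
EMC1, the largest subunit, had a positive change in all 4 lines. It passed in VC (0.38, SE 0.07, edgeR adjusted p = 1.0e-04) and in KD (0.38, SE 0.07, edgeR adjusted p = 1.1e-04), the latter lost without set 2 (0.31). In KD it went from 135, 131 and 152 CPM to 183, 184 and 177 CPM, without overlap. WT (0.24, SE 0.07, edgeR adjusted p = 0.01002) and OE (0.21, SE 0.07, edgeR adjusted p = 0.038) missed the threshold, and OE passed without hypoxia OE replicate 1 (0.28). In WT it passed with RLE size factors, filterByExpr, DESeq2 and only the compared libraries, at 0.25 to 0.26, and in OE with filterByExpr and DESeq2 (both 0.23). VC, OE and KD each had 2 members called, of 10, 10 and 9, against 21%, 13.9% and 19.1% of all genes. Of genes of at least 1 CPM 36.1%, 23.9% and 33.5% were called. EMC3, EMC4, EMC7 and MMGT1 passed in no line.

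**Figure D5:**
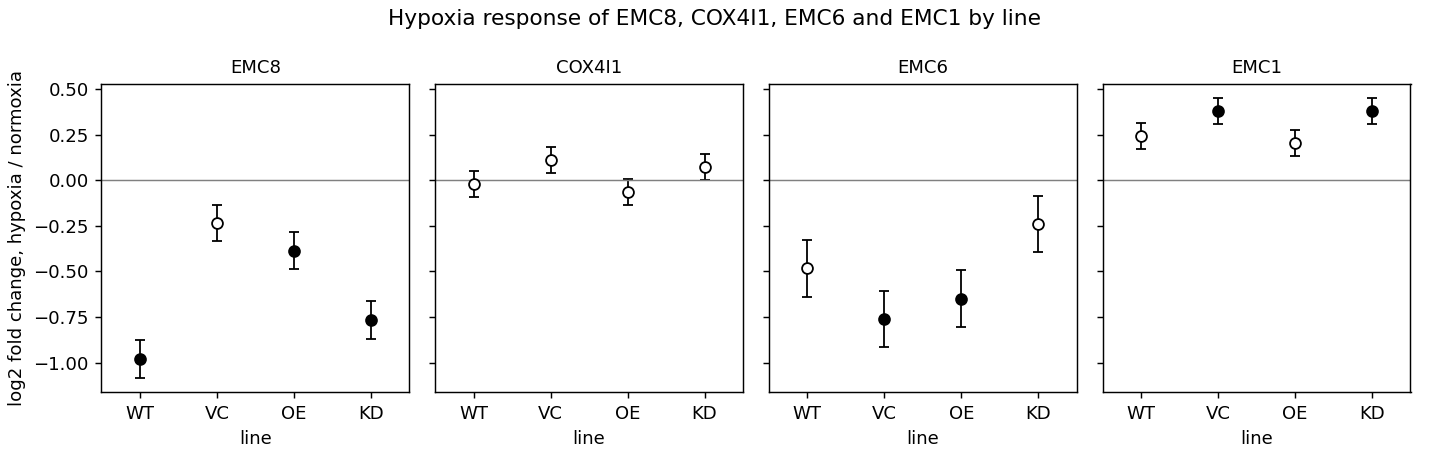
Log2 fold change of hypoxia against normoxia in WT, VC, OE and KD for EMC8, its divergent neighbour COX4I1, EMC6 and EMC1, with standard errors. Filled points have an adjusted p under 0.01. EMC8 is lowest in WT (-0.98) and nearest to 0 in VC (-0.23), while COX4I1 stays between -0.06 and 0.11.

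Other routes into the ER membrane were counted from gene lists, beside the shares of genes of at least 1 CPM called: 27.3% and 30.6% in KD against WT, 55% and 61.8% in VC against WT and 43.5% in OE against WT in hypoxia. In KD against WT in normoxia 2 of 12 genes of the SEC61 translocon were higher and 1 lower (median 0.05), with SEC63 at 0.35 (SE 0.07) and SSR1 at -0.33 (SE 0.08). In the signal recognition particle and its receptor 1 of 8 was higher and 1 lower (median 0.05). None of 7 genes of the GET pathway for tail-anchored proteins and none of 9 genes of the multipass translocon passed. Of 5 signal peptidase genes 2 were higher, and SEC11A, which encodes a catalytic subunit, was lower at -0.59 (SE 0.07). In hypoxia 4 of 8 genes of the signal recognition particle group were higher in KD (median 0.24), SRP19 at 0.59 (SE 0.12) among them, and of the SEC61 genes 3 were higher and 1 lower. In OE in hypoxia 4 of 8 of the signal recognition particle group were also higher than in WT (median 0.29), with SRP19 at 0.98 (SE 0.12), and no gene of the group was called for the response in KD minus that in WT.
FDFT1 and SOAT1 encode sterol enzymes of the ER membrane that are known to need the EMC, and with the receptor gene ADRB1 they formed a list of 3. In normoxia KD both were higher than in WT, by 0.92 (SE 0.07, edgeR adjusted p = 2.4e-11) and 0.28 (SE 0.07, edgeR adjusted p = 0.0015). In hypoxia KD FDFT1 was at -0.23 (SE 0.07, edgeR adjusted p = 0.019) and did not pass, and SOAT1 was higher by 0.32 (SE 0.07, edgeR adjusted p = 4.3e-04). In normoxia both were lower than in WT in VC, at -0.82 (SE 0.07) and -0.63 (SE 0.07), and in OE, at -0.76 (SE 0.07) and -0.74 (SE 0.07). In hypoxia VC both were lower, at -0.55 (SE 0.07) and -0.75 (SE 0.07), and in hypoxia OE SOAT1 was lower (-0.65, SE 0.07) and FDFT1 did not pass (0.00, SE 0.07). In hypoxia FDFT1 fell in WT (-0.59, SE 0.07) and in KD (-1.75, SE 0.08), and the difference of these responses was -1.16 (SE 0.10, edgeR adjusted p = 4.1e-08). ADRB1 had at most 9 counts in any library, with 0 in every OE library, and passed in no comparison with WT.
In VC against WT 4 of 8 genes of the signal recognition particle group were higher and 1 lower in normoxia, and 5 higher in hypoxia (medians 0.27 and 0.54). SRPRB, the membrane anchor of the receptor, was higher by 0.89 (SE 0.08) and 1.63 (SE 0.08). Of 12 SEC61 translocon genes 2 were higher and 4 lower in normoxia (median 0.01), and 5 higher and 1 lower in hypoxia (median 0.26). SEC61G, the small translocon subunit, was higher by 1.38 (SE 0.08) and 1.71 (SE 0.08), and TRAM2, a translocon-associated membrane protein gene, was lower, at -0.54 (SE 0.07) and -0.67 (SE 0.07). Of 9 multipass translocon genes 3 were higher and 1 lower in normoxia and 5 higher and 1 lower in hypoxia, with CCDC47 at 0.56 (SE 0.06) and 0.93 (SE 0.06). The list holds NOMO1, NOMO2 and NOMO3, near-identical copies whose counts are uncertain. In hypoxia WT, where 36.8% of genes of at least 1 CPM were called, 5 of 8 signal recognition particle genes were lower than in normoxia and none higher (median -0.40), SRP19 at -1.16 (SE 0.11) among them.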

How the data were processed

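RNA from 24 libraries of ARPE-19 cells was depleted of ribosomal RNA and sequenced as single reads. Per the labels and the study's methods, the authors aligned reads with STAR to GRCh38 and deposited whole-number counts per gene. The annotation is named differently in the methods and the alignment report. The authors also deposited TMM-normalized signal values, from which whole reads were recovered for 100% of 530927 values above 0 (within 0.01 reads, 100% equal to the counts), and an alignment report whose other values include uniquely mapped reads.

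Counts were fitted with edgeR 4.0.16 in R 4.3.3 (quasi-likelihood, robust, TMM) as 1 model of 8 groups over the 24873 genes with at least 10 counts. Genes were called when the Benjamini-Hochberg adjusted value over all of them was under 0.01. Filter and threshold are those of the study. A floor of 3 counts equals 0.150 to 0.252 CPM and covers counting error only. Coordinates and transcript lengths come from the GENCODE annotation of GRCh38. The procedure was tested on simulated data. Some genes are not reported here and were left out of the marker list and of the counts of nearby genes. Members and lists were chosen with earlier results of these data known. Named genes are the members, EMP2, genes within 100 kb of EMC10 or overlapping a member, the 5 genes most like EMC10 and up to 4 called genes per list and comparison. Genes near EMC7, EMC4 and EMC8 and the joined-exon lengths were added after seeing the data. Alternatives were RLE size factors, no filter, filterByExpr, DESeq2 1.42.0, a fit of only the compared libraries, a block for replicate number, the recovered reads and libraries or sets left out.

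Replicate numbers are the set numbers in the labels. Same-numbered libraries deviated together, with all 3 correlations over 0.1, in KD against WT in normoxia (0.334 to 0.444) and hypoxia (0.126 to 0.493), in OE against VC in normoxia (0.161 to 0.320), and in hypoxia against normoxia in WT (0.102 to 0.340) and VC (0.173 to 0.436). Differently numbered libraries reached 0.177 in KD against WT in hypoxia and 0.173 in hypoxia against normoxia in WT. Both lie above the lowest same-numbered value, so pairing is uncertain there. In the rest of these comparisons they reached at most 0.059.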

Additional observations from a re-analysis of the deposited data

Results flagged for a closer look

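The response of EMC8 to hypoxia differed between lines in the interaction test. Relative to WT, where EMC8 fell by 0.98 on the log2 scale, the fall was smaller by 0.60 in OE and by 0.75 in VC. Both contrasts use the same WT libraries. The OE call was lost with only the compared libraries and in 7 of 15 fits that left libraries out, and the VC call without set 3.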

How the results depend on the processing

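No called member changed direction under any alternative. Of 40 member values followed, RLE size factors lost 3 calls, DESeq2 2, filterByExpr 1 and the compared libraries alone 8, while no filter and the replicate block lost none. The recovered reads equal the counts, so their fit could not differ and says nothing about how the calls hold. Causes were not tested. With only the compared libraries, the members called became 3 in OE against WT in normoxia (from 1), 1 in KD against WT in normoxia (0), 1 in OE against WT in hypoxia (4) and 3 in OE against VC in hypoxia (5). For hypoxia against normoxia they became 3 in WT (1), 4 in VC (2) and 0 in OE (2), and for the responses minus WT 0 in OE (1) and 2 in VC (1). The genes called by that fit were 3411 against 6626 for OE against WT in hypoxia, 6081 against 9502 for OE against VC in hypoxia, 762 against 3449 for hypoxia in OE, and 888 against 1536, 605 against 245 and 3019 against 1996 for the responses of OE, KD and VC minus WT. For the KD response DESeq2 called 523 genes and no filter 374. OE against WT in normoxia gave 2 members with filterByExpr and 2 with DESeq2, and KD against WT in hypoxia gave 1 with RLE size factors. Hypoxia in WT gave 2 with RLE size factors, no filter or filterByExpr and 3 with DESeq2, and the VC response minus WT gave 2 with no filter.

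The replicate block raised the members called for hypoxia in WT to 2. In comparisons where the numbers do not pair libraries it added MMGT1 in hypoxia, at -0.27 in VC against WT and 0.27 in OE against VC, and it changed no other call. With libraries left out, the members called ranged from 1 to 2 (OE against WT), 0 to 1 (KD against WT), 4 to 6 (VC against WT) and 4 to 7 (OE against VC) in normoxia, and from 1 to 4, 0 to 2, 4 to 5 and 4 to 6 in hypoxia. For hypoxia against normoxia they ranged from 1 to 2 in WT, VC and KD and 0 to 2 in OE, and for responses minus WT from 0 to 1 in OE, 0 to 0 in KD and 0 to 2 in VC. Other scaling moved the median of all genes by at most 0.0364 on the log2 scale. Depth limits EMC10 in KD, at 12 counts or fewer per library.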
